A study of Mus musculus with 10 samples.

Results

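Genes that mark endothelial cells, the lining of blood vessels, were followed in old mouse kidney under a control diet and under long-term calorie restriction. The 10 genes were Pecam1, Cdh5, Kdr, Flt1, Tek, Tie1, Eng, Emcn, Ehd3 and Plvap, taken by gene symbol as known endothelial markers. Every probe set annotated with exactly 1 of these symbols was taken, which gave 16 of 45101 probe sets, for 10 of 18194 named genes. Of the 16 probe sets 14 passed the filter on low signal, and each of the 10 genes kept at least 1. The data came from kidneys of C57BL/6 males aged 30 months, 5 on the control diet and 5 calorie restricted, each mouse on its own array (the labels call them biological replicates). The labels do not state how strong the restriction was, when it began or how long it lasted. Values are MAS5 signals, a weighted summary of the perfect-match and mismatch probes of a probe set, on a linear scale. A difference is the mean log2 signal in calorie restriction less that in controls, given ± its standard error from limma (5 mice per group). The test's threshold was an adjusted p of 0.05 over all tested probe sets.

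Endothelial cells hold together through adhesion proteins such as those made by Pecam1 and Cdh5. They receive growth and survival signals through the vascular endothelial growth factor (VEGF) receptors Kdr and Flt1 and through the angiopoietin receptor Tek with its partner Tie1. The kidney holds several capillary beds: fenestrated glomerular capillaries that filter the blood, which are rich in Ehd3 and Emcn, peritubular capillaries rich in Plvap, and the vasa recta of the medulla. Podocytes and tubule cells supply much of the VEGF on which these capillaries depend.

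None of the 10 genes passed the threshold between the diets. The count was 0 of 10 by the brightest probe set of each gene, where 6.1% of 12196 tested genes and 6.09% of 22519 tested probe sets passed. At an unadjusted p of 0.05 the limma fit picked 4 genes on the lower side, Pecam1, Emcn, Tie1 and Flt1, and 1 on the higher side, Eng, where 13.8% and 12.6% of all genes did so, 26.4% together. The differences ran from -0.65 for Emcn to 0.29 for Eng. Their median was -0.15, and that of all tested genes was -0.0052. In whole tissue, fewer endothelial cells and less RNA per cell cannot be told apart.

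The arrays differed in a measure of RNA quality. The mean log2 ratio between 3' and 5' probe sets of Gapdh and Actb is higher where the labelled transcripts are shorter. On control arrays 1 to 5 it was 0.91, 0.76, 0.94, 1.39 and 1.25. It was 2.21, 2.01 and 1.75 on calorie-restricted arrays 1, 2 and 3, above every control, and 1.24 and 1.16 on calorie-restricted arrays 4 and 5 (2-sided exact permutation p = 0.0476 between the diets, n = 5 per group). Each difference is therefore also given for replicates 1 to 3 and for replicates 4 and 5 of the groups, and from a fit with this 3' to 5' ratio as covariate. Kidney markers passed the filter, with lowest signals on any array of 22090.2 for Umod of the thick limb, 3292 for Aqp2 of the collecting duct and 210 for the podocyte gene Nphs1. Markers of vessel-borne and lymphatic cells were mixed: the platelet genes Pf4 (653 to 1002 in controls) and Itga2b (329 to 470.1) and the lymphatic genes Pdpn (711 to 1779) and Flt4 (436 to 761.5), which other cells share, passed the filter. Ppbp and Gp9 of platelets and Lyve1 and Prox1 of lymphatics did not.

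**Figure D1:**
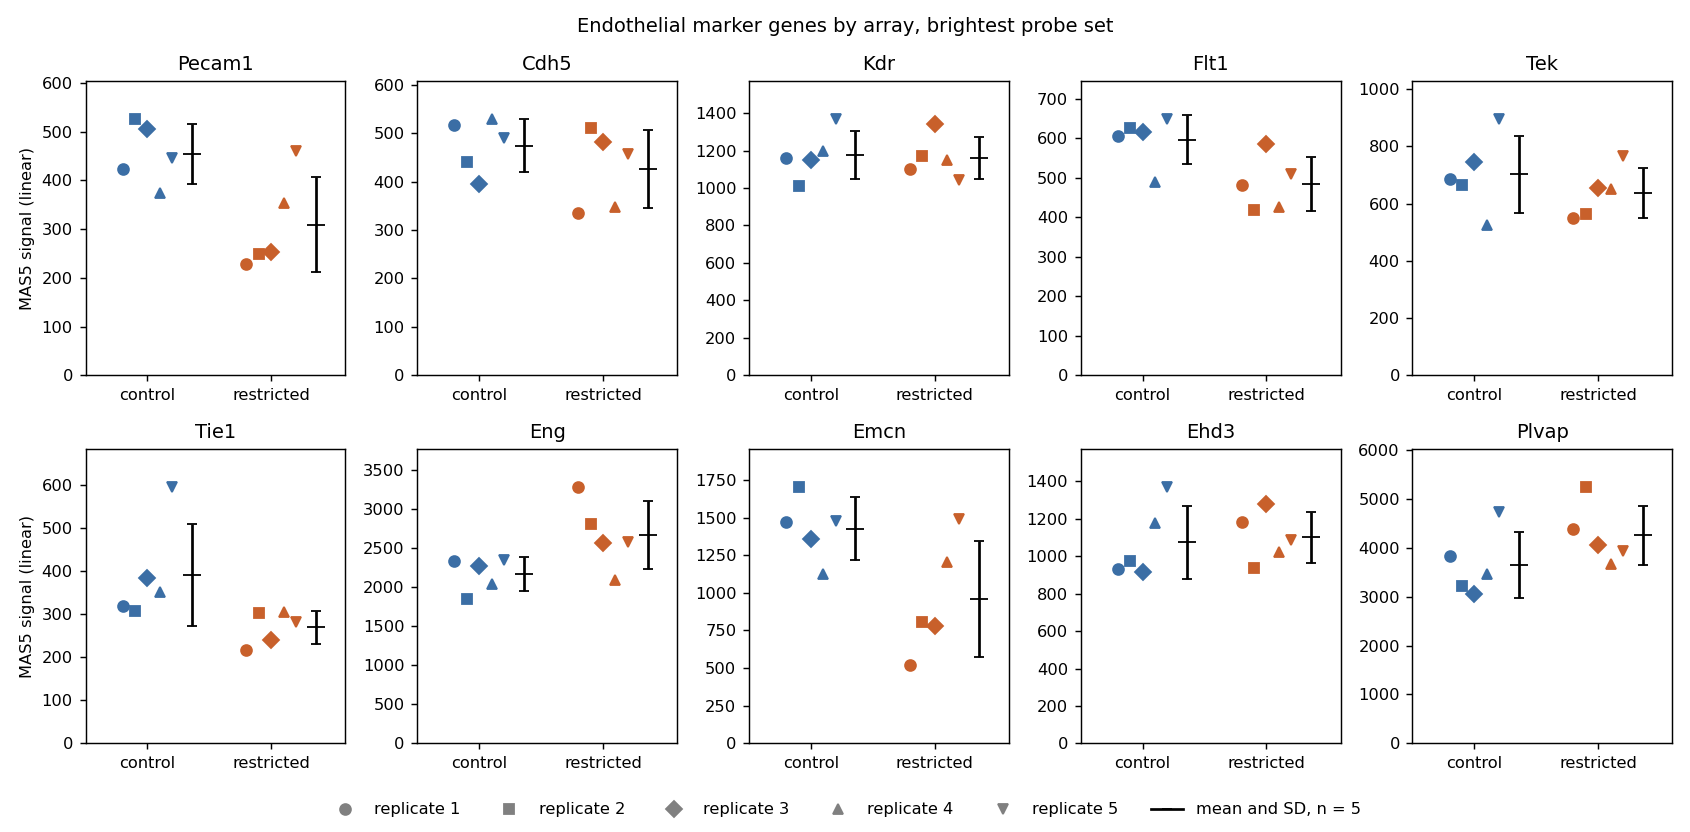
MAS5 signal (linear, from 0) of the brightest probe set of each of the 10 genes on the 5 control and 5 calorie-restricted ("restricted") arrays, with marker shape for the replicate number and the mean and SD beside each group. The groups do not overlap for Tie1, while Pecam1 and Emcn are lowest on calorie-restricted arrays 1, 2 and 3.

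Of 20 endothelial transcription factors 2 fell, Fli1 and Ets1, where 3.02% of all genes did. ETS factors, to which both belong, drive many endothelial genes, but the other 4 ETS genes of the list did not pass. Those were Ets2 at -0.37 ± 0.11, Elk3 at -0.48 ± 0.19, Erg at -0.37 ± 0.21 and Etv6 at 0.27 ± 0.12. A dimmer tested probe set gave 0.99 for Ets2, -0.08 for Elk3 and -0.45 for Etv6, so the probe sets of Ets2 and Etv6 disagree in sign. Fli1 gave 163, 244, 169, 312 and 224 in controls and 145, 111, 114, 96.6 and 141 in calorie restriction. All 5 calorie-restricted arrays lay below all controls (-0.85 ± 0.21, limma adjusted p = 0.0369, and -1.18 in replicates 4 and 5). Leukocytes and platelets also express Fli1. Ets1, which lymphocytes also express, differed by -0.48 ± 0.12 (adjusted p = 0.0406) in its brightest probe set and by -0.85, 0.10 and 0.53 in 3 others, so its probe sets disagree. Both calls were lost without any 1 of 7 arrays, with calorie-restricted replicates 1, 2 and 3 among them, and the others were control replicates 2, 3, 4 and 5 for Fli1 and 1, 2, 4 and 5 for Ets1. With the ratio as covariate the differences were -1.05 for Fli1 and -0.55 for Ets1, and neither passed in that fit, where 9 of 22519 probe sets did.

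ETS factors bind DNA around the core GGAA, and the windows before the start of 3 members are shown for this reason: Tie1, whose diets did not overlap, Emcn, with the lowest difference, and Eng, with the highest. The bases come from RefSeq on GRCm38.p6, 5′ to 3′ on the gene's strand, and end just before the first annotated start of the gene. Capitals mark GGAA on either strand (TTCC where it lies on the other strand). The table held windows for 7 of the 10 genes. Tie1 lies at chr4:118489850-118490099 (minus strand), Emcn at chr3:137340828-137341061 (plus strand) and Eng at chr2:32646345-32646594 (plus strand).
Tie1: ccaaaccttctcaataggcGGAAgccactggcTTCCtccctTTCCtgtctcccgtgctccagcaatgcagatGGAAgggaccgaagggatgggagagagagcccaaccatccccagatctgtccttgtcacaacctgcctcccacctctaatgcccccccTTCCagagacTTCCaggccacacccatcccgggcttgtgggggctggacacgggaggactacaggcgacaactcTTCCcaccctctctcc
Emcn: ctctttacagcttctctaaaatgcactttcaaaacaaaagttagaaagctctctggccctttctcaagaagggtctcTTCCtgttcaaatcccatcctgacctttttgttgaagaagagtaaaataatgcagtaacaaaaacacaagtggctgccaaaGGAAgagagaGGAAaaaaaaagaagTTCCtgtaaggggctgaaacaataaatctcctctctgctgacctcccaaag
Eng: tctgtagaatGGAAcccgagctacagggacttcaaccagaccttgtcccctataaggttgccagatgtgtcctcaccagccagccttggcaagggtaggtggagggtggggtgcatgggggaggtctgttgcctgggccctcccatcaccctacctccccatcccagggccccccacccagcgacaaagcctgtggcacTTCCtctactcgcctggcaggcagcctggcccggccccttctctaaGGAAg

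The core occurred 7 times in the 250 bases of Tie1, 4 times in the 234 of Emcn, 3 times in the 250 of Eng and 3 times in the 250 of Ehd3. It is short: 93.4% of 32851 windows of 250 bases held it, with a median of 3. The longer form AGGAAG (or CTTCCT), which contains the core, was found once or more in 29.5% of all windows. It was found 1 time in Tie1, 2 times in Emcn, 2 times in Eng and 0 times in Ehd3. The windows of the other 3 genes reach into annotated transcripts and are not shown; their 250 bases held the core 4 times in Kdr, 4 times in Flt1 and 2 times in Tek, and the longer form 0, 2 and 0 times. A match describes these letters and is no measure of binding.

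Among the members, the first pair are surface proteins of the endothelial junction. Pecam1, an adhesion molecule that platelets and many leukocytes also carry, gave signals of 424, 525, 506, 373 and 446 on control arrays 1 to 5. On calorie-restricted arrays 1 to 5 it gave 229, 249, 253, 354 and 461. Calorie-restricted arrays 1 to 4 lay below all controls and array 5 lay inside the control range. The means were 455 ± 61.5 and 309 ± 97.7 (SD, n = 5), a difference of -0.60 ± 0.19 (limma adjusted p = 0.0704). It was -0.99 in replicates 1 to 3 (limma adjusted p = 0.00395, where 19.9% of probe sets passed). In replicates 4 and 5 it was -0.015, and with the 3' to 5' ratio as covariate -0.097 (limma adjusted p = 0.849). Without calorie-restricted replicate 5 the gene passed at -0.76 (adjusted p = 0.0164, where 11% of probe sets passed). With array weights it also passed (-0.65, adjusted p = 0.0383, where 10.2% of probe sets did). Platelet markers were at 1666 to 2190 summed signal units in controls and 1636 to 2810 in calorie restriction, with 0 of 5 tested genes past the threshold. Of 15 tested macrophage and monocyte markers 6 fell, where 3.02% of all genes did. Their summed signal was 25196 to 45149 in controls and 18073 to 29510 in calorie restriction, and their part in the Pecam1 values was not tested.

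Cdh5, or VE-cadherin, the adhesion protein of endothelial junctions that is least shared with other cells, gave 517, 441, 395, 528 and 490.3 on control arrays 1 to 5. The calorie-restricted arrays gave 335, 509.6, 481, 347 and 457.5. Replicates 1 and 4 lay below all controls and the other three lay among them. The difference was -0.17 ± 0.15 with a 95% interval of -0.49 to 0.15 (limma adjusted p = 0.504). It was -0.045 in replicates 1 to 3, -0.35 in replicates 4 and 5 and -0.22 with the covariate. A dim second probe set of Cdh5, with signals of 28.0 to 99.7, was not tested.

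Kdr is the main signalling receptor for VEGF-A on endothelium. Its signals were 1160.0, 1009, 1151, 1199 and 1366 on control arrays 1 to 5 and 1100.2, 1172, 1340.0, 1152 and 1043 on calorie-restricted arrays 1 to 5. All 5 calorie-restricted values lay inside the control range. The difference was -0.018 ± 0.11 (limma adjusted p = 0.938), with a 95% interval of -0.25 to 0.22. That interval leaves room for a shift of either sign up to those bounds. Replicates 1 to 3 gave 0.12, replicates 4 and 5 gave -0.22 and the fit with the covariate gave -0.12.

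Flt1 encodes a VEGF receptor that binds the ligand tightly and signals weakly, and the same gene also yields a soluble form that traps VEGF. Its probe sets stood on both sides of 0. The brightest, 1419300_at, gave 605.5, 626, 615, 491 and 648 in controls and 482, 418, 587, 426 and 511 in calorie restriction. Calorie-restricted arrays 1, 2 and 4 lay below all controls (-0.31 ± 0.13, adjusted p = 0.150 in limma). The difference was -0.33 in replicates 1 to 3 and -0.27 in replicates 4 and 5, and -0.24 with the ratio as covariate.

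A second Flt1 probe set, 1451756_at, stood on the other side. It gave 245, 266, 315, 306 and 226 in controls and 339, 379.5, 476, 309 and 269 in calorie restriction, with 3 arrays above all controls (0.37 ± 0.17, limma adjusted p = 0.180). Its difference was 0.52 in replicates 1 to 3, 0.13 in replicates 4 and 5 and 0.18 with the covariate. The third, 1440926_at, differed by 0.079 ± 0.14. It gave 0.20 in replicates 1 to 3, -0.096 in replicates 4 and 5 and -0.035 with the covariate. The last, 1454037_a_at, lay below the filter with a mean signal of 102.8 in controls. The log2 ratio of 1451756_at to 1419300_at on the same array was -1.14 ± 0.33 in controls and -0.47 ± 0.29 in calorie restriction (SD, n = 5). That is a difference of 0.67 (2-sided exact permutation p = 0.0159, adjusted p = 0.0794 over the 5 pairs of probe sets that members allow). The difference was 0.85 in replicates 1 to 3 and 0.41 in replicates 4 and 5. Calorie-restricted arrays 1 to 3 had the highest 3' to 5' ratios, and the part of RNA quality in this difference was not tested. The pairs were compared after the values were seen. The annotation does not say which Flt1 transcript each probe set detects.

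**Figure D2:**
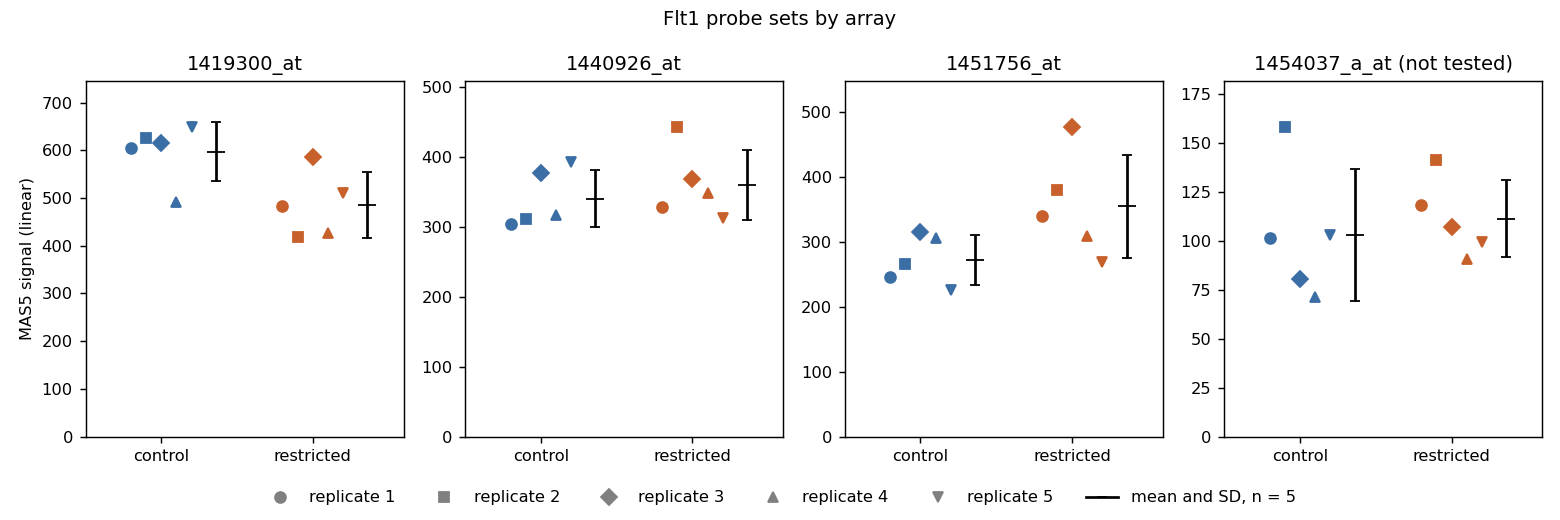
MAS5 signal (linear, from 0) of the 4 probe sets of Flt1 on each array, with marker shape for the replicate number and the mean and SD of each group (n = 5). In calorie restriction 1419300_at has the lower mean, 485 against 597, and 1451756_at the higher, 355 against 272, and 1454037_a_at was not tested.

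The angiopoietin receptors followed. Tek, or Tie2, the receptor that binds the angiopoietins and keeps vessels quiescent, gave 684, 663, 745, 525 and 894 in controls and 551, 564.5, 655, 652 and 765 in calorie restriction. All 5 calorie-restricted values lay inside the control range. The difference was -0.13 ± 0.15, with a 95% interval of -0.44 to 0.18 (limma adjusted p = 0.611). It was -0.24 in replicates 1 to 3, 0.044 in replicates 4 and 5 and 0.077 with the covariate.

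Tie1, the related receptor that binds no angiopoietin by itself and modulates Tek, was the marker whose diets did not overlap. Its signals were 319, 307, 383, 351 and 594 on control arrays 1 to 5 and 217, 303, 239, 304 and 281 on calorie-restricted arrays 1 to 5. All 5 calorie-restricted arrays lay below all 5 controls, by a margin of 304 against 307 at the nearest pair. Control replicate 5 stood well above the other controls. The groups did not overlap in 1 of the 10 genes, where 7.49% of all tested genes showed this. The means were 391 ± 117 and 269 ± 39.1 (SD, n = 5), a difference of -0.51 ± 0.18 (limma adjusted p = 0.102).

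The Tie1 difference had the same sign in all 23 other fits that gave it, between -0.64 and -0.35, and passed the threshold in 0 of them. As the groups did not overlap, a fit on fewer of the same arrays could give no other sign. The fits with no filter, no trend or the replicate block gave the main value itself. The shared sign is therefore no separate evidence. The difference was -0.42 in replicates 1 to 3, -0.64 in replicates 4 and 5 and -0.50 ± 0.25 with the ratio as covariate. The value in replicates 4 and 5 did not pass (limma adjusted p = 0.294) and includes control replicate 5, the high one. Without control replicate 5 it was -0.35 (limma adjusted p = 0.175).

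Eng, endoglin, the co-receptor that helps the endothelial receptor Acvrl1 respond to BMP9, stood on the higher side. Its brightest probe set gave 2335, 1853, 2270.4, 2042 and 2355 in controls and 3281, 2815, 2572, 2093 and 2585 in calorie restriction. The calorie-restricted arrays lay above all controls except replicate 4, which lay among them. The means were 2171 ± 217 and 2669 ± 432 (SD, n = 5), a difference of 0.29 ± 0.12 (limma adjusted p = 0.148). The other probe set of Eng differed by 0.18 ± 0.13, on the same side. It gave 0.36 in replicates 1 to 3, -0.094 in replicates 4 and 5 and -0.12 with the covariate. The difference of the brightest one passed in replicates 1 to 3 at 0.42 (limma adjusted p = 0.0457, where 19.9% of probe sets passed). It was 0.085 in replicates 4 and 5 and 0.071 with the covariate.

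The last 3 genes mark the capillary beds of the kidney. Emcn, endomucin, a sialomucin of capillary and venous endothelium that is strong in glomeruli, gave 1468, 1701, 1361, 1128 and 1474 on control arrays 1 to 5. It gave 520.2, 806, 779, 1202 and 1491 on calorie-restricted arrays 1 to 5. Calorie-restricted arrays 1, 2 and 3 lay far below all controls and arrays 4 and 5 lay inside their range.

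The Emcn means were 1426 ± 208 and 959 ± 384 (SD, n = 5), a difference of -0.65 ± 0.23 (limma adjusted p = 0.0935). The difference was -1.13 in replicates 1 to 3 (limma adjusted p = 0.00351, where 19.9% of probe sets passed). It was 0.054 in replicates 4 and 5 and 0.026 with the covariate. Without calorie-restricted replicate 5 the gene passed at -0.84 (limma adjusted p = 0.0227, where 11% of probe sets passed).

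Ehd3, a membrane-trafficking ATPase found in kidney almost only in glomerular endothelium, did not follow Emcn. Its brighter probe set gave 934, 976, 917, 1178 and 1369 in controls and 1181, 935, 1282, 1021 and 1089 in calorie restriction, all inside the control range. The difference was 0.045 ± 0.13 with a 95% interval of -0.24 to 0.33 (limma adjusted p = 0.863). The other probe set differed by 0.17 ± 0.15. In replicates 1 to 3 the brighter one differed by 0.25, in replicates 4 and 5 by -0.27 and with the covariate by -0.098. The dimmer one differed by 0.46, -0.25 and -0.075 in the same order.

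Plvap builds the diaphragms across the openings of peritubular capillaries. It gave 3838, 3211, 3049, 3460.5 and 4746 in controls and 4395, 5242, 4069.8, 3665 and 3941 in calorie restriction. Calorie-restricted replicate 2 lay above all controls and the rest lay among them. The difference was 0.23 ± 0.13 with a 95% interval of -0.050 to 0.50 (limma adjusted p = 0.282). It passed in replicates 1 to 3 at 0.44 (limma adjusted p = 0.0368, where 19.9% of probe sets passed). In replicates 4 and 5 it was -0.093, and with the covariate 0.0094.

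**Figure D3:**
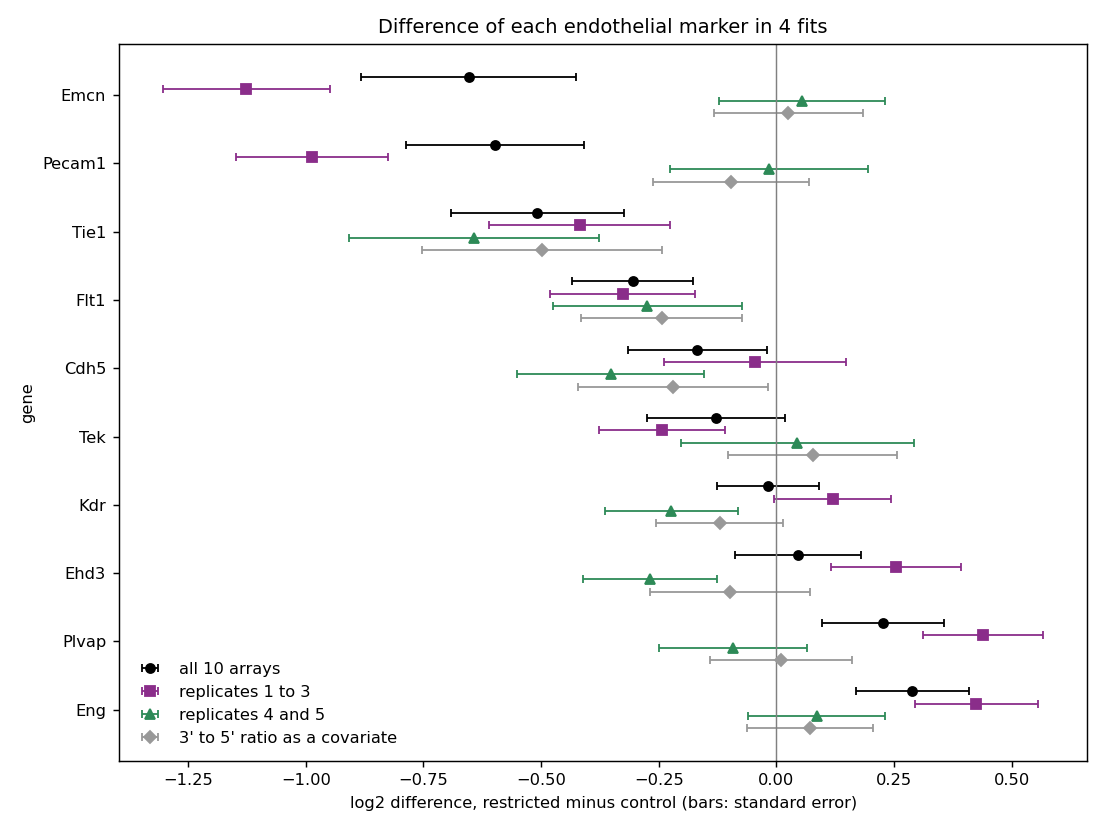
Log2 difference, calorie restricted minus control, of each gene by its brightest probe set, with bars for the standard error, over all 10 arrays, in replicates 1 to 3, in replicates 4 and 5, and from the fit with the 3' to 5' ratio as covariate. Pecam1 and Emcn lie near 0 in replicates 4 and 5 (-0.015 and 0.054), while Tie1 lies at -0.64 there and at -0.42 in replicates 1 to 3.

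The dependence on the replicates was tested after the values were seen, with sets of replicates formed from the 3' to 5' ratio. Control arrays had 3' to 5' ratios of 0.76 to 0.94 in replicates 1 to 3 and 1.25 to 1.39 in replicates 4 and 5. Calorie-restricted arrays had 1.75 to 2.21 and 1.16 to 1.24. The set of replicates and RNA quality therefore cannot be told apart in this test. The diet difference of Pecam1 in replicates 4 and 5 was 0.97 ± 0.26 above that in replicates 1 to 3 (limma interaction, adjusted p = 0.0440). For Emcn the same contrast was 1.18 ± 0.28 (adjusted p = 0.0310), and the other 8 genes did not pass. Of 22519 probe sets 6.66% passed this test, so 2 of 10 genes did against that background.

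At equal diet, the signal of Emcn changed by -1.09 ± 0.17 on the log2 scale per unit of the 3' to 5' ratio (limma adjusted p = 0.00588), and that of Pecam1 by -0.80 ± 0.18 (adjusted p = 0.0234). The other 8 slopes did not pass, that of Tie1 being -0.016 ± 0.28, and 6.54% of all probe sets had a slope past the threshold. The slopes too were fitted after the values were seen, on the same arrays as the interaction. Emcn and Pecam1 thus fell with the ratio at equal diet, and the low values on calorie-restricted arrays 1 to 3 sit where the ratio was highest. On those 3 arrays diet and RNA quality cannot be told apart. In replicates 4 and 5, with 2 arrays per diet, limma's adjusted p was 0.984 for Pecam1 and 0.915 for Emcn, and 0 of the 10 genes passed, where 0.879% of probe sets did.

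**Figure D4:**
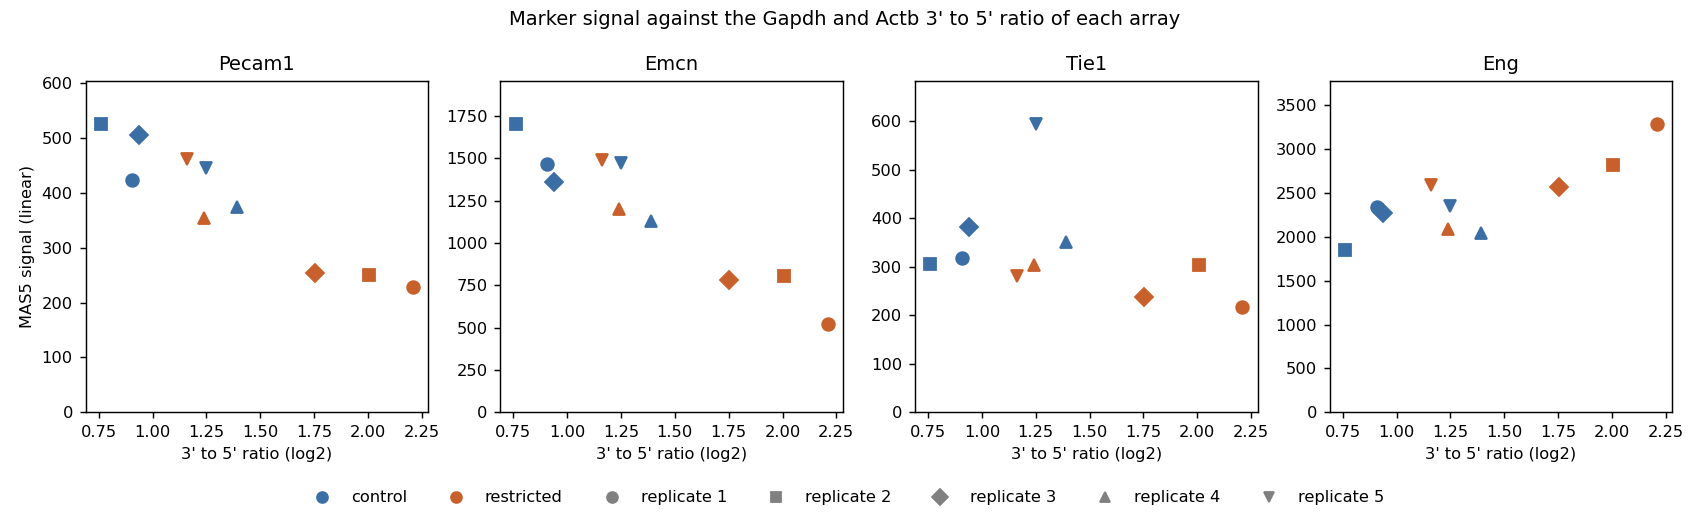
MAS5 signal (linear, from 0) of Pecam1, Emcn, Tie1 and Eng against the log2 3' to 5' ratio of Gapdh and Actb on the same array, coloured by diet, with marker shape for the replicate number. Pecam1 and Emcn are lowest on the 3 calorie-restricted arrays with ratios of 1.75 to 2.21, and Eng is highest on the array at 2.21.

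The arrays did not rank alike across the 10 genes. Control replicate 5 was the highest control in 7 of the 10 and above the control mean in 9. Calorie-restricted replicate 1 was the lowest of its group in 5, and replicate 4 lay below the control mean in 9. The median of the 10 genes relative to the control mean was -0.32, -0.24, 0.0050, -0.16 and 0.034 on calorie-restricted arrays 1 to 5, against -0.11 to 0.17 on control arrays. Calorie-restricted arrays 1, 2 and 4 thus lay below all controls and arrays 3 and 5 among them.

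The ligands and partners of these receptors were read from lists of related genes. Of 8 tested VEGF ligands and co-receptors 0 passed. Vegfa, the ligand of Kdr and Flt1, gave 2372, 2417, 2467, 1986 and 2406 in controls and 1800.2, 1844, 1669, 2508 and 2283 in calorie restriction. It was thus low on calorie-restricted arrays 1, 2 and 3, and its difference was -0.22 ± 0.12 overall (limma adjusted p = 0.272) and 0.13 in replicates 4 and 5. The co-receptor Nrp1 gave 3604, 4101, 3420.3, 3772 and 3906 in controls and 3275, 2981, 3400.2, 2493 and 2746 in calorie restriction. All 5 lay below all controls (-0.34 ± 0.10, limma adjusted p = 0.0576, and -0.55 in replicates 4 and 5), while its 3 other tested probe sets differed by -0.18, -0.015 and 0.30. Vegfc, a ligand of lymphatic vessels, differed by -0.50 ± 0.21 (adjusted p = 0.152).

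On the angiopoietin side 0 of 4 tested genes passed. Angpt1, the agonist of Tek, differed by -0.083 ± 0.13, Angpt2, its context-dependent antagonist, by -0.17 ± 0.14, and Svep1, a matrix protein, by -0.16 ± 0.12. Ptprb, the phosphatase that restrains Tek, differed by 0.12 ± 0.10, and by 0.37 ± 0.14 in its second probe set. Tie1 was the gene of this pathway with the lowest difference. Of 14 tested genes around endoglin 1 passed, a share near the 6.1% of all genes, the TGF-beta type I receptor Tgfbr1 (-0.57 ± 0.10, limma adjusted p = 0.0170, all 5 calorie-restricted arrays below all controls). The endoglin partner Acvrl1 gave -0.37 ± 0.19 and, in its other probe set, 0.35 ± 0.21. Of 8 Notch pathway genes of arteries 0 passed, with Jag1, a ligand, at -0.39 ± 0.14 and the endothelial receptor Notch4 at -0.35 ± 0.17.

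Beyond the members, 10 lists (the transcription factors included) of endothelial and related genes held 138 other tested genes, of which 8 fell and 2 rose. That is 7.25%, where 6.1% of all genes passed, 3.02% on the lower side and 3.08% on the higher. The difference was below 0 in 68.8% of the 138, against 50.8% of all tested genes, and the medians were -0.12 and -0.0052. Those that fell included Sparcl1, a matricellular protein of capillary and mural cells (-0.89 ± 0.15, limma adjusted p = 0.0152), and Edn1, the vasoconstrictor endothelin, which collecting duct cells also make (-0.85 ± 0.18, 0.0233). The leukocyte adhesion molecule Vcam1, which injured tubules also make (-0.92 ± 0.20), the plasminogen activator Plat of glomerular endothelium (-0.56 ± 0.14) and the lipid phosphatase Plpp1 (-0.40 ± 0.10) fell too. The 2 that rose, the growth factor binding protein Igfbp5 (0.61 ± 0.12) and the water channel Aqp1 (0.38 ± 0.080), are in the list for peritubular capillaries and vasa recta, and proximal tubule cells make Aqp1 in quantity. By list, 1 of 20 junction and surface genes, 2 of 37 other endothelial genes, 1 of 11 glomerular capillary genes, 1 of 11 artery genes and 1 of 12 peritubular capillary genes fell, and 2 of those 12 rose. These list counts include members: Emcn, Ehd3 and Kdr among the glomerular genes and Plvap among the peritubular ones.

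**Figure D5:**
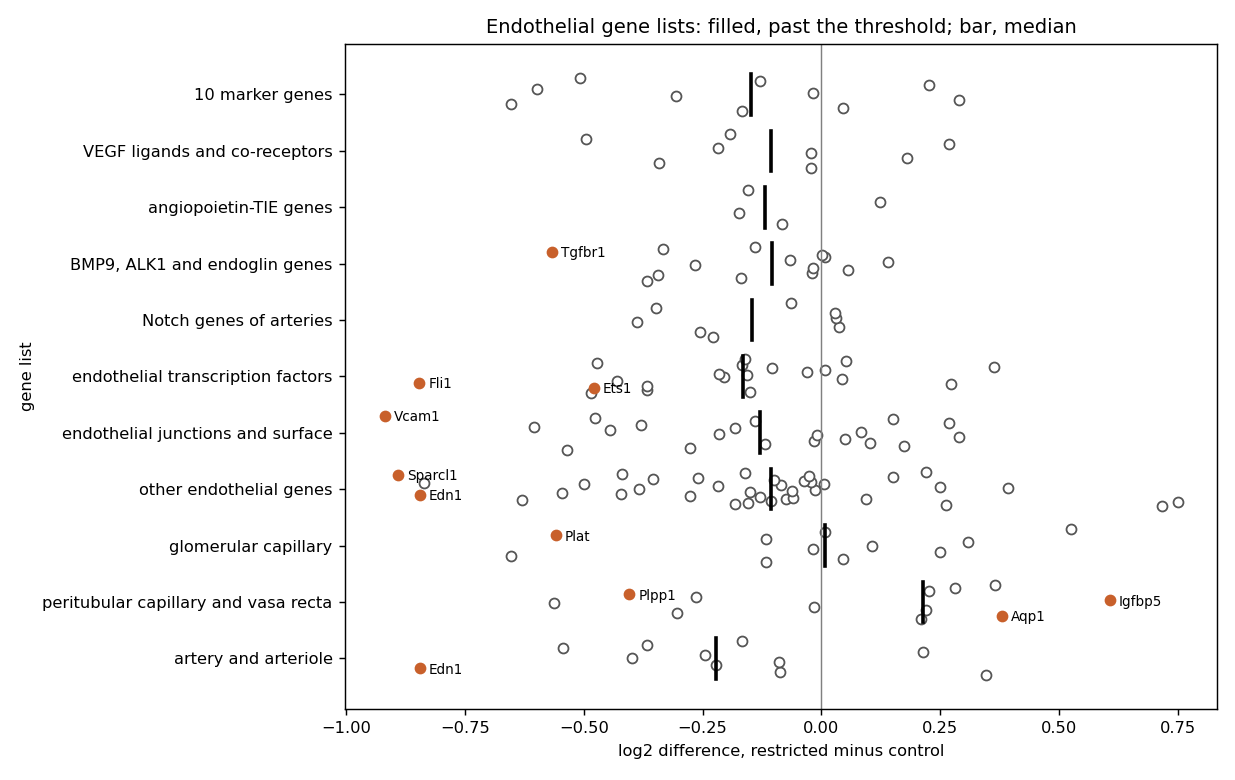
Log2 difference, calorie restricted minus control, of every tested gene (brightest probe set) in the 10 marker genes and in 10 further lists, with filled points for genes past the adjusted p threshold of 0.05 and a bar at each list's median. The 10 marker genes hold no filled point. Some genes appear in 2 lists, among them Edn1 and the markers Emcn, Ehd3, Kdr and Plvap.

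Of the 10 calls only that of Sparcl1 was kept without each of the 10 arrays in turn, and 0 of 10 passed with the ratio as covariate, where 9 of 22519 probe sets did. The differences in that fit were -1.0 for Vcam1, -0.77 for Edn1, -0.64 for Plat, -0.60 for Sparcl1, -0.52 for Tgfbr1, -0.29 for Plpp1, 0.46 for Igfbp5 and 0.37 for Aqp1. The call of Tgfbr1 was lost without control replicate 2, and those of Igfbp5 and Aqp1 without control replicate 2 or calorie-restricted replicate 1 or 2. The calls of Vcam1 (without control replicate 4), Edn1 (control replicate 2, 3 or 4), and Plat and Plpp1 (control replicate 2, 3, 4 or 5) were also lost without calorie-restricted replicate 1, 2 or 3. Adjusted p reached at most 0.104 in these fits, for Ets1. After quantile normalization Ets1, Plat and Aqp1 did not pass (0.0665, 0.0508 and 0.0895). The second probe sets of Plat and Igfbp5 stood at 0.32 ± 0.31 and -0.22 ± 0.28, opposite to the brighter ones.

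Markers of other kidney cells are given beside these values, where 3.02% of all genes fell and 3.08% rose. Of 10 tested podocyte markers 3 fell by their brightest probe sets, Npnt, Wt1 and Cd2ap, with summed signals of 11051 to 14621 in controls and 9067 to 10764 in calorie restriction. Dimmer tested probe sets differed by 0.21, 0.29 and -0.19 for Npnt and by 0.13 and -0.38 for Cd2ap. Of 14 proximal tubule markers 10 rose, with summed signals of 166149 to 210633 in controls and 249640 to 292743 in calorie restriction. Stromal and smooth muscle markers fell in 2 of 13 cases, Pdgfra and Lum, with sums of 18754 to 27554 and 16645 to 20524. Of 6 adipocyte markers 2 fell, with sums of 16988 to 28740 and 11188 to 17793. Of 4 tested lymphatic markers 0 passed, with Mmrn1 at 0.39 ± 0.21 and Pdpn at -0.31 ± 0.20. The summed signal of the 10 endothelial genes was 11274 to 14381 in controls and 11215 to 13014 in calorie restriction, which overlapped. Plvap and Eng, with control means of 3661 and 2171, were the brightest of them and weigh most in that sum. Both stood on the higher side. The part of these cell types in the values of the endothelial genes was not tested.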

How the data were processed

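Each of 10 arrays (Affymetrix Mouse Genome 430 2.0) measured 1 kidney. Per the submitters' processing notes, the authors made the deposited intensity values as MAS5 signals in Affymetrix Expression Console, whose version is not given. Trimmed of 2% of probe sets at each end, every array had a mean of 500.003, so all were scaled to 1 trimmed mean. The mean without trimming was 755 to 768 on control arrays and 786 to 831 on calorie-restricted arrays. Detection calls were not used here, and the number of arrays limits the precision.

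Signals below 1 were set to 1 and log2 was taken. Of 45037 probe sets without the 64 controls, the 22519 with a mean log2 signal at or above the median of 6.81 were tested with limma 3.58.1 in R 4.3.3 (trended eBayes, 2-sided), adjusted over all of them by Benjamini-Hochberg. Each gene was read from its brightest tested probe set. The platform annotation gave 1 symbol for 34958 probe sets, several for 932 and none for 9211. Probe sets ending in s_at or x_at can bind related transcripts. The labels call the arrays biological replicates, so p-values rest on differences among the 10 mice. The fit was tested on simulated data.

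The members and gene lists were chosen with earlier results of these data known. All members were named, and from each other endothelial list up to 4 genes past the threshold, or else up to 2 with the smallest p as values, with the ligands and partners of members and the 5 genes of most like profile. Alternatives were a filter at the top 30% or none, median centring, quantile normalization, an offset of 50 before log2, array weights, eBayes with no trend, a block for the replicate number, the 3' to 5' ratio as covariate, replicates 1 to 3 or 4 and 5 alone, each array left out, and averaging a gene's probe sets. The interaction, the slope on the ratio, the pairs of probe sets and replicates 4 and 5 with quantile normalization were added after the values were seen.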

Additional observations from a re-analysis of the deposited data

Results flagged for a closer look

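Control replicate 4 had a signal of 490.7 for the Flt1 probe set 1419300_at, far below the other 4 controls. It was the 1 such value in 32 groups of 5 arrays examined, where chance gives about 1 in 20 groups. The diet difference of Pecam1 was 0.97 higher in replicates 4 and 5 than in replicates 1 to 3 (limma interaction, adjusted p = 0.0440), and that of Emcn was 1.18 higher (adjusted p = 0.0310). These sets of replicates were formed from the 3' to 5' ratio of the arrays and are not groups of the study.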

How the results depend on the processing

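Against 1371 probe sets past the threshold, there were 287 without a filter, 764 after quantile normalization, 243 without trend, 2292 with array weights, 127 with the replicate number as a block, 9 with the ratio as covariate and 5 with that and quantile normalization. Replicates 4 and 5 alone gave 198 (155 after quantile normalization) and replicates 1 to 3 gave 4484. Leaving out 1 array gave 125 to 2481. Median centring moved the median of all tested probe sets to -0.098 and the split of calls from 659 higher and 712 lower to 315 and 1218. Of the 10 genes 1 passed with array weights, where 10.2% of probe sets did, and 4 in replicates 1 to 3, where 19.9% did. With 1 array left out 0 to 2 passed, where 0.555% to 11% of probe sets did. In no other fit did any of them pass, the block included. No pairing of the mice by replicate number was seen: arrays of the same number correlated at -0.14 to -0.087 in their deviations. The median of the 10 genes stayed between -0.25 and -0.061 in all 24 other fits, and between -0.20 and -0.082 with 1 array left out. Each of these lay less than 0.12 from the -0.15 of the main fit. That 0.12 is the pooled SD, within the groups, of the arrays' median over the 10 genes.

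Of the 10 genes 7 turned sign somewhere, all without passing there. With quantile normalization Kdr was 0.030, and with array weights 0.014. With median centring Ehd3 was -0.053. With the covariate Tek was 0.077, Emcn 0.026 and Ehd3 -0.098, and with quantile normalization added 0.13, 0.062 and -0.066, and Plvap -0.016. In replicates 4 and 5 Tek was 0.044, Emcn 0.054, Ehd3 -0.27 and Plvap -0.093. With quantile normalization these were 0.11, 0.097, -0.23 and -0.13, and Pecam1 was 0.035. Kdr was 0.12 in replicates 1 to 3, and Flt1 was 0.047 as the mean of its probe sets. With 1 array left out Kdr ran from -0.071 to 0.038 and Ehd3 from -0.012 to 0.14. Cdh5, Tie1 and Eng kept their sign in every fit that gave them, as Tie1 had to in fits on fewer arrays. The dimmer probe set of Eng did not, at -0.094 in replicates 4 and 5 and -0.12 with the covariate. The stricter filter gave no value for Tie1, whose signal lies below it.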

Other observations

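The genes whose profile over the 10 arrays was nearest to the mean profile of the 10 endothelial genes were Grk5, Ptprc, Plbd1, Tsc22d3 and Cdc42ep4. Likeness was the root mean square difference of profiles standardised to mean 0 and SD 1, which was 0.27 to 0.35 for these 5, against a median of 1.32 over 12186 genes. Ptprc encodes the common leukocyte antigen CD45, Grk5 a kinase of G protein-coupled receptors, and Tsc22d3 a glucocorticoid-induced leucine zipper protein. Their diet differences ran from -0.45 ± 0.20 for Ptprc to -0.35 ± 0.13 for Cdc42ep4, and 0 of 5 passed the threshold in limma (adjusted p from 0.115 to 0.196). These 5 were picked as the nearest of all genes on the same 10 arrays. Their small root mean square differences and lower diet differences come with that choice. Each member is itself part of that mean profile. The same measure was 0.51 for Tie1, 0.54 for Tek, 0.66 for Emcn, 0.72 for Pecam1, 0.75 for Flt1, 0.95 for Cdh5, 1.09 for Kdr, 1.19 for Ehd3, 1.36 for Plvap and 1.59 for Eng. By this measure Plvap and Eng were farther from the members' mean profile than the median gene.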
